A study of Mus musculus with 6 samples.

Results

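Krüppel-like factors, early growth response factors and other fast-induced genes outside the AP-1 family were examined in mouse leukaemia cells with and without a Gata2 deletion. The set holds 10 genes, Klf2, Klf4, Klf6, Egr1, Egr2, Egr3, Nr4a1, Ier2, Ier3 and Dusp1, chosen by symbol from the 49585 rows of the deposited count table. All 10 were found, and 9 passed the filter on low counts, which left out Egr3. The cells were bone marrow leukaemias labelled MA9, commonly shorthand for the MLL-AF9 fusion gene. They carried loxP-flanked Gata2 alleles (Gata2 f/f, named f-f in the sample descriptions) or the genotype Gata2 -/- (Gata2 KO, named Cre), with 3 samples numbered 1 to 3 for each genotype. All 6 samples had 18 h in 5 uM Nutlin, which blocks the binding of MDM2 to p53, in IMDM with 15% serum, IL-3, IL-6 (10 ng/mL) and SCF (20 ng/mL). Samples without Nutlin were not analysed here, and the labels name neither the promoter or vector of Cre nor how many leukaemias the samples came from.

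Early response genes are switched on within minutes of a signal, without new protein synthesis, by factors already present in the cell. Serum and growth factors act on many of them through ERK kinases, the serum response factor SRF and its TCF partners, and through CREB. ERK5 acts on Klf2 and Klf4 through MEF2 factors. Their messages are short-lived, and several of their products, such as the phosphatase DUSP1, switch the signal off again. In myeloid cells EGR factors and KLF4 are linked with monocyte differentiation, and KLF2 with quiescence and restraint of inflammatory genes.

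Klf2 had the largest difference between the genotypes among the 9 tested genes, and its promoter is shown with 3 others that hold matches to response elements known from such genes. A 300-base window from RefSeq (GRCm38.p6), from 250 bases before to 50 bases after a transcript start, was found for 7 of the 10 genes and not for Egr1, Egr3 and Ier2. The stretches printed are the parts before the start that no GENCODE M21 exon covers. Capitals mark the MEF2 site, the SRF element known as the CArG box, the CRE core TGACG (in reverse CGTCA), the palindromic CRE TGACGTCA, which holds that core on both strands, and TGCGTCA, which also holds it in reverse.
Klf2, chr8:72318812-72319032, plus strand: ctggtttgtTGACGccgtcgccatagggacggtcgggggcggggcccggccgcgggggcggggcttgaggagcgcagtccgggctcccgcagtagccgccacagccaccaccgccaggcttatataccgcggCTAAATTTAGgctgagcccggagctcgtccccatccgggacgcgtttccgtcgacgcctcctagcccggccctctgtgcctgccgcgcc
Nr4a1, chr15:101266596-101266845, plus strand: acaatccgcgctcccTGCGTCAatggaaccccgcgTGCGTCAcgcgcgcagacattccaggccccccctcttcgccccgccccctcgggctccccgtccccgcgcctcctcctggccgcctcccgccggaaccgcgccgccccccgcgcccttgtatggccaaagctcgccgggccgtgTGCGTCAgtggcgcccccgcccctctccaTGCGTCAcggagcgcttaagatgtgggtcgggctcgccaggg
Dusp1, chr17:26508520-26508722, minus strand: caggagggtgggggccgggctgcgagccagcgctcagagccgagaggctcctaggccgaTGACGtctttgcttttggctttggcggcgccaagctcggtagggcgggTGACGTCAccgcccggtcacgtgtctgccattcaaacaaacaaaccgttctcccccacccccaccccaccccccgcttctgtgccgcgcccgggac
Egr2, chr10:67537619-67537868, plus strand: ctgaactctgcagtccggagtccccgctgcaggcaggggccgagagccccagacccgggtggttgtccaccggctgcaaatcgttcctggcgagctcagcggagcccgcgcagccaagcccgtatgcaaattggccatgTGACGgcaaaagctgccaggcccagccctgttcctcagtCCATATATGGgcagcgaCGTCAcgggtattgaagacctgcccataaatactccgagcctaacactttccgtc

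Among the 7 genes with a window, a match to the MEF2 site was found in Klf2 only, at position -118, with the first transcribed base as 0. Of 32807 RefSeq windows of the same length, 3.19% held such a match on either strand. The CArG box was found in Egr2 only (1.63% of windows) and the palindromic CRE in Dusp1 only (1.79%). The CRE core was found in 5 of the 7 genes, Klf2, Klf4, Egr2, Nr4a1 and Dusp1, and in 20.8% of all windows. Nr4a1 held TGCGTCA at 4 positions, and 2.11% of windows held it at least at 1 position. Matches for the EGR site GCGNGGGCG were found in Klf2, Klf4 and Nr4a1 (5.56% of windows), for the KLF box CCACCC in Klf2, Egr2 and Dusp1 (31.5%), and for the NF-kB site in Ier3 and Nr4a1 (4.51%). Egr2 has 5 windows, of which the printed one overlaps others, and each other gene has 1. A gene was counted if any of its windows held a match, whereas the percentages are of single windows. For Egr2 the 2 are therefore unlike measures. A match describes these letters only, and no binding was measured in these samples.

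Library totals ran from 17138687 to 26440960 counts. Levels are given as CPM, counts scaled by TMM to library size. Gata2 had 33.6, 22.3 and 18.4 CPM in Gata2 f/f 1, 2 and 3. KO 1 had 5.44 CPM and KO 3 had 4.33 CPM. The library labelled Gata2 KO 2 had 43.3 CPM, which goes against its label, and "KO 2" in what follows means only the library so labelled. Every value over the 3 KO libraries includes it unless stated otherwise. Both libraries numbered 3 stood apart from the other 4 in monocyte and macrophage markers. Summed levels of 12 monocyte and macrophage markers were 2307 CPM in f/f 3 and 2388 CPM in KO 3, against 721 to 1039 CPM in the others. Erythroid markers, at low levels, summed to 2.22 to 3.12 CPM in f/f and to 4.30 to 7.65 CPM in KO. Dendritic markers summed to 61.0 and 73.3 CPM in number 3 against 2.32 to 9.28 CPM in the others. Nearly all of this was Itgax, at 60.2 CPM in f/f 3 and 71.3 CPM in KO 3. Siglech, Cd209a, Batf3 and Xcr1 had at most 1.39 CPM in any library, so the sum does not speak for dendritic markers in general. T, NK and B cell markers summed to at most 2.31 CPM in any library, with Ncr1 and Pax5 at 0 counts in all 6. Of the markers of the labelled cells, Hoxa9 and Meis1 were detected in every library, at 168 CPM or more and 42.9 CPM or more. The other 3 progenitor and leukaemia markers, Cd34, Kit and Flt3, were lower in the KO library within every number. Cd34, a stem and progenitor cell surface protein, was at 35.1, 39.2 and 33.6 CPM in f/f 1, 2 and 3, against 4.68, 37.1 and 6.68 CPM in KO 1, 2 and 3. KO 1 and KO 3 were thus far below every f/f library in Cd34 and KO 2 within the f/f range (log2 fold change -1.16 ± 0.74, edgeR, adjusted p = 1.00; -1.82 in DESeq2 with library number as a block, adjusted p = 0.00295). Kit, the receptor for SCF, ran from 28.5 to 88.7 CPM in f/f and had 1.34 CPM in KO 3, and Flt3 had at most 4.56 CPM in any library.

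Between genotypes, none of the 9 tested genes passed edgeR's quasi-likelihood test over all genes (adjusted p = 1.00 for each), and 0.00% of the 13744 genes tested did. At an unadjusted p under 0.05, edgeR had 0 of the 9 and 171 of all genes (1.24%). Without a block DESeq2 called 0 of the 9 and 0.0509% of all genes, 0.0146% being higher in KO. With the library number as a block it called Klf2 alone of the 9, against 1.62% of all genes and 1.31% called higher in KO. All 9 had a positive log2 fold change of KO over f/f, as 52.5% of all tested genes did. Their median was 0.45, against 0.021 for all tested genes. With the number as a block all 9 were again positive, against 50.2% of all genes, and the median was 0.77, against 0.003. That fit called none of them (edgeR, adjusted p = 0.336 to 0.545), and Klf2, Ier2 and Ier3 had an unadjusted p under 0.05, as 10.7% of all genes did.

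Within every number, 8 of the 10 genes were higher in the KO library, all but Klf6 and Egr3, and 20.7% of all tested genes were. Leaving out number 2, which holds the doubted library, the count was again 8 of 10 (27.9% of all tested genes), and leaving out number 3 it was 10 of 10 (36.4%). The median log2 difference of the 9 tested genes was 0.82 in number 1, 0.84 in number 2 and 0.26 in number 3. No gene of the set had genotype ranges free of overlap, since f/f 3 exceeded KO 1 or the library labelled KO 2 in each except Ier2, where f/f 1 exceeded the latter. Such ranges were rare among all tested genes. In 2.64% every KO library lay above every f/f library, and in 2.78% every KO library lay below.

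**Figure D1:**
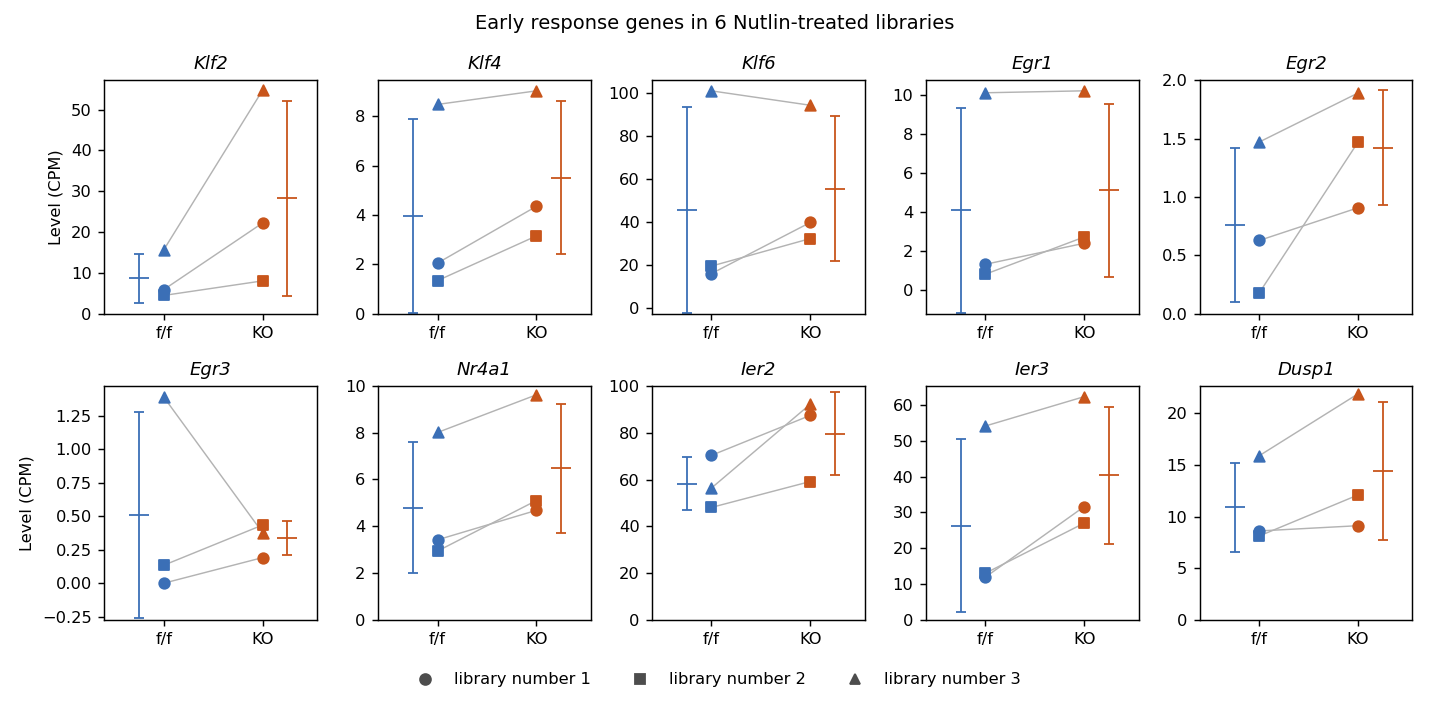
Level in CPM (vertical axes, linear, a separate scale for each gene) of the 10 genes in Gata2 f/f and Gata2 KO. Points are libraries, shaped by number, grey lines join libraries of the same number, and the bars beside them are mean and SD (n = 3). For Klf2 the KO point lies above the f/f point of its number in all 3 numbers, and for Klf6 the points of number 3 are at 101 and 94.3 CPM, far above the others.

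Klf2 (ENSMUSG00000055148.7, GRCm38 chr8:72319033-72321656, plus strand), a zinc-finger factor that holds lymphocytes and endothelium in a quiescent state, was at 5.87, 4.46 and 15.6 CPM in f/f 1, 2 and 3. In KO 1, 2 and 3 it had 22.2, 8.03 and 54.7 CPM. KO 1 and KO 3 lay above every f/f library, and the library labelled KO 2, the doubted one, lay between f/f 1 and f/f 3. The KO library was 3.77-fold higher in number 1, 1.80-fold in number 2 and 3.51-fold in number 3. The means were 8.64 ± 6.05 and 28.3 ± 23.9 CPM (SD, n = 3), and the edgeR log2 fold change was 1.71 ± 0.76 (SE; unadjusted p = 0.0585, adjusted p = 1.00). With the block it was 1.54 ± 0.27 in edgeR (adjusted p = 0.336) and 1.52 ± 0.31 in DESeq2 (adjusted p = 0.000166). Without the library labelled KO 2 and with the block, edgeR called Klf2 higher in KO (log2 1.86, adjusted p = 0.0248). That fit called 0.378% of all genes, 0.231% being higher in KO. In it f/f 2 has no partner, so the genotype term rests on numbers 1 and 3 alone, taken as pairs. Without KO 3 and without a block the log2 fold change was 0.78, and without f/f 3 it was 2.42. Summed levels of 10 neutrophil markers, 8 of the 9 tested with positive fold changes, were 266, 559 and 1837 CPM in f/f 1, 2 and 3 and 1737, 589 and 3159 CPM in KO 1, 2 and 3. Like Klf2 these sums were highest in KO 3 and higher in KO within each number, though nearly level in number 2. There S100a8 (165 and 149 CPM in f/f and KO), S100a9 (145 and 130 CPM), Camp and Retnlg were lower in KO. Mmp8 (18.4 and 64.4 CPM), Ngp, Ltf, Cxcr2, Mmp9 and Cd177 were higher. In number 1 only Camp and Retnlg were lower in KO, and in number 3 only Mmp8 (992 and 500 CPM in f/f and KO) and Ltf. Unlike Klf2, the sum was higher in f/f 3 than in KO 1 and higher in f/f 2 than in f/f 1. The part of the neutrophil markers in the Klf2 difference was not tested. Cd34 was lowest in KO 1 and KO 3, where Klf2 was highest, and its part was not tested either. In bulk RNA, fewer cells of a type and less RNA per cell cannot be told apart.

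Klf4 (ENSMUSG00000003032.8, chr4:55527143-55532466, minus strand), a pluripotency factor that also acts in monocyte differentiation, was highest in the libraries numbered 3. It was at 2.05, 1.34 and 8.48 CPM in f/f 1, 2 and 3, against 4.35, 3.15 and 9.03 CPM in KO 1, 2 and 3. The KO library was about as far above its f/f partner in number 1 (2.12-fold) as in number 2 (2.35-fold), and in number 3 the ratio was 1.06. The log2 fold change was 0.47 ± 0.75 without the block and 0.77 ± 0.33 with it (edgeR, adjusted p = 1.00 and 0.482).

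Klf6 (ENSMUSG00000000078.6, chr13:5861482-5870394, plus strand), a broadly expressed factor induced in activated macrophages, was set apart mainly by the number 3 libraries. It was at 16.0, 19.5 and 101 CPM in f/f 1, 2 and 3, against 39.8, 32.3 and 94.3 CPM in KO 1, 2 and 3. The order by genotype held in numbers 1 and 2 (2.49-fold and 1.65-fold) and turned in number 3 (0.938-fold). The log2 fold change was 0.29 ± 0.77 without the block and 0.64 ± 0.28 with it (edgeR, adjusted p = 1.00 and 0.483). Without f/f 1, f/f 2 or KO 3 the unblocked value was negative (-0.15, -0.07 and -0.35).

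The EGR genes encode zinc-finger factors that bind GC-rich sites. Egr1 (ENSMUSG00000038418.7), the archetype of the family, was at 1.31, 0.80 and 10.1 CPM in f/f 1, 2 and 3, against 2.39, 2.71 and 10.2 CPM in KO 1, 2 and 3. Number 3 was 9.57-fold above the mean of numbers 1 and 2 in f/f and 4.0-fold above it in KO, while the genotypes within number 3 were nearly level. Its log2 fold change was 0.32 ± 1.02 without the block and 0.80 ± 0.39 with it (edgeR, adjusted p = 1.00 and 0.507), and without f/f 1, f/f 2 or KO 3 the unblocked value was negative (-0.12, -0.17 and -0.70).

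Egr2 (ENSMUSG00000037868.15, chr10:67535475-67542188, plus strand), a factor of nerve myelination and of macrophages, was at 0.627, 0.178 and 1.47 CPM in f/f, against 0.907, 1.47 and 1.89 CPM in KO. These levels rest on 11, 4 and 37 counts in f/f and on 19, 27 and 45 in KO. The log2 fold change was 0.89 ± 0.72 (edgeR, adjusted p = 1.00). Egr3 (ENSMUSG00000033730.3, chr14:70077203-70082614, plus strand), known from muscle spindles and lymphocytes, had 0, 3 and 35 counts in f/f and 4, 8 and 9 in KO. The 0 counts in f/f 1 allow a level of up to 0.172 CPM (3 counts, counting error only). The only level of Egr3 above 1 CPM was the 1.39 CPM of f/f 3, and with no filter on low counts the log2 fold change was -0.69 (edgeR, adjusted p = 0.986).

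Nr4a1 (ENSMUSG00000023034.6, chr15:101254269-101274795, plus strand) encodes NUR77, an orphan nuclear receptor needed for patrolling monocytes. It was at 3.42, 2.94 and 8.01 CPM in f/f 1, 2 and 3, against 4.68, 5.10 and 9.62 CPM in KO 1, 2 and 3. The KO library was higher in each number, by 1.37-fold, 1.73-fold and 1.2-fold in numbers 1, 2 and 3, and the log2 fold change was 0.43 ± 0.50 (edgeR, adjusted p = 1.00).

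Ier2 and Ier3 encode small early response proteins, nuclear in the case of IER2 and linked with survival and NF-kB signalling in the case of IER3. Ier2 (ENSMUSG00000053560.4, chr8:84661331-84662852, minus strand) was at 70.4, 48.1 and 56.4 CPM in f/f 1, 2 and 3, against 87.5, 59.2 and 92.3 CPM in KO 1, 2 and 3. Unlike in the other tested genes, f/f 3 lay between the other f/f libraries. Its log2 fold change of 0.45 ± 0.26 (edgeR, unadjusted p = 0.128, adjusted p = 1.00) stayed between 0.28 and 0.62 in every fit run. Ier3 (ENSMUSG00000003541.6, chr17:35821684-35822923, plus strand) was at 11.9, 13.0 and 54.1 CPM in f/f 1, 2 and 3, against 31.6, 27.0 and 62.3 CPM in KO 1, 2 and 3. The KO library was 2.67-fold, 2.08-fold and 1.15-fold higher in numbers 1, 2 and 3. Ier3 had a log2 fold change of 0.61 ± 0.65 without the block and 0.88 ± 0.27 with it (edgeR, adjusted p = 1.00 and 0.403).

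Dusp1 (ENSMUSG00000024190.6, chr17:26505590-26562128, minus strand) encodes the phosphatase MKP-1, which inactivates p38, JNK and ERK kinases. It was at 8.61, 8.12 and 15.9 CPM in f/f 1, 2 and 3, against 9.12, 12.1 and 21.9 CPM in KO 1, 2 and 3. The ratio of KO to f/f was 1.06, 1.49 and 1.38 in numbers 1, 2 and 3, and the log2 fold change was 0.41 ± 0.43 (edgeR, adjusted p = 1.00). Without KO 3 it was -0.05. The annotated Dusp1 locus overlaps Ergic1 on the opposite strand. Whether their exons overlap was not examined and no strand setting is stated, so any effect on the Dusp1 count is not known.

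**Figure D2:**
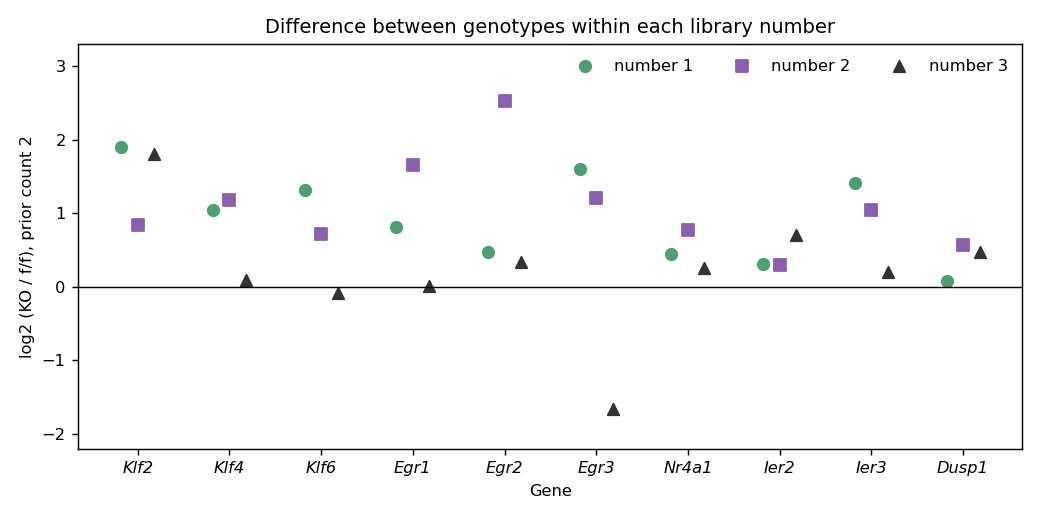
Difference in log2 CPM (prior count 2) between the KO and the f/f library of the same number (vertical axis) for each of the 10 genes (horizontal axis), 1 point per number. Klf2 lies at 1.90, 0.84 and 1.81, while Klf4, Klf6 and Egr1 lie at 0.09, -0.09 and 0.01 in number 3, and Egr3, at few counts, at -1.66.

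**Figure D3:**
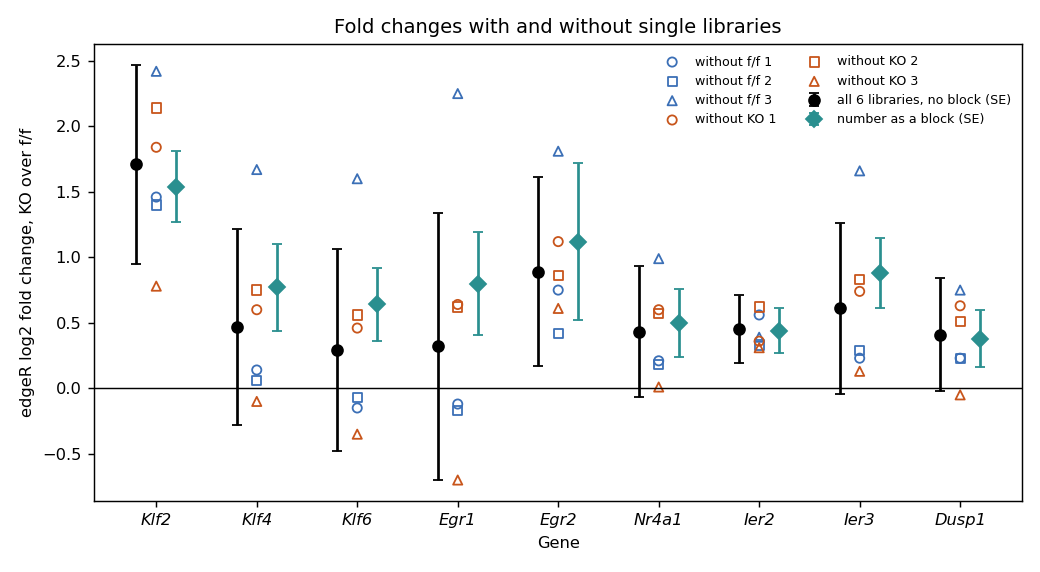
edgeR log2 fold change of KO over f/f (vertical axis) for the 9 tested genes. Filled points with SE bars are fits on all 6 libraries, without and with the number as a block, and open points are unblocked fits without a single library. For Klf2 the fits run from 0.78 to 2.42, all above 0, whereas Klf4, Klf6, Egr1 and Dusp1 each have at least 1 open point below 0.

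The library number was tested in its own right, in a model with genotype and number. Klf2, Klf4, Klf6, Egr1 and Ier3 differed between numbers (edgeR F test, adjusted p = 0.0248, 0.0424, 0.0254, 0.0263 and 0.0354), 5 of 9, against 9.09% of the 13744 genes. All 5 had number 3 above number 1, and 6.61% of all genes were called in that direction. The DESeq2 likelihood ratio test called 7, adding Nr4a1 and Dusp1, against 20.9% of all genes. Nr4a1 and Dusp1 (adjusted p = 0.0765 and 0.0719), Egr2 (0.330) and Ier2 (0.213) did not pass in edgeR. Fitted log2 differences of number 3 from number 1 were 2.56 for Egr1, 1.95 for Klf6, 1.59 for Ier3, 1.57 for Klf4 and 1.34 for Klf2. Klf2 also had the lowest fitted value of these 5 in number 2, at -0.93 from number 1. Number 3 was the highest in both genotypes for 8 of the 10 genes, against 27.2% of all tested genes, the exceptions being Ier2 (f/f 1 highest in f/f) and Egr3 (KO 2 highest in KO). Without KO 3, 3 genes were called (Klf6, Ier3 and Egr1), against 5.39% of all genes, and Klf2 and Klf4 were not (adjusted p = 0.0806 and 0.0578). Without f/f 3, 4 genes were called (Klf2, Klf6, Ier3 and Ier2), against 24.6% of all genes, and Klf4 and Egr1 were not (adjusted p = 0.0812 and 0.0554).

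Myeloid markers differed between numbers as well, 8 of 12 monocyte and macrophage markers and 2 of 9 tested neutrophil markers by the same F test. Of all tested genes 9.09% were called by that test. What the number marks is not in the labels. The monocyte and macrophage sum was 721, 870 and 2307 CPM in f/f 1, 2 and 3 and 1039, 982 and 2388 CPM in KO 1, 2 and 3. Klf6 and Ier3 were low, intermediate and high in the same libraries as that sum, both genotypes of number 3 being highest and f/f 1 and 2 lowest. That sum was also higher in KO than in f/f within each number, and 10 of its 12 markers had positive fold changes. Csf1r, the receptor for the monocyte growth factor M-CSF, was at 275 and 262 CPM in number 3 and at 10.3 to 121 CPM in the others. Of 5 tested stromal markers 3 differed between numbers too, the 6 on the list summing to 15.3 to 48.3 CPM. Of 4 endothelial markers, all with positive fold changes, Cdh5 and Kdr differed between numbers (edgeR F test, adjusted p = 0.0305 and 0.0481). Cdh5 was at 2.51, 2.01 and 6.69 CPM in f/f 1, 2 and 3, against 3.73, 3.91 and 12.9 CPM in KO 1, 2 and 3, higher in KO within every number as Kdr and Tek were. The part of these markers in the levels of the early response genes was not tested.

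**Figure D4:**
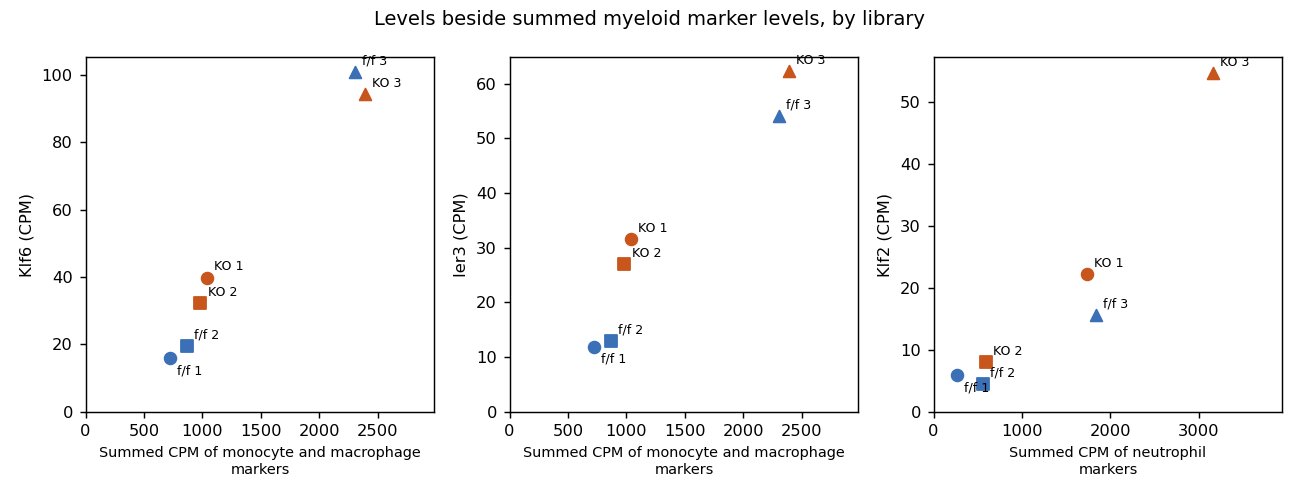
Level of Klf6 and Ier3 beside the summed CPM of 12 monocyte and macrophage markers, and of Klf2 beside that of 10 neutrophil markers (horizontal axes), 1 point per library (both axes in CPM from 0). Number 3 of both genotypes lies at 2307 and 2388 CPM of monocyte and macrophage markers with the highest Klf6 and Ier3 levels, and KO 3 lies highest in both neutrophil markers and Klf2.

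Per kilobase of annotated exon, the mean levels in Gata2 f/f ran from Ier2 (38.3 ± 7.42 CPM per kb, SD, n = 3) and Ier3 (23.3 ± 21.3) over Klf6 (10.3 ± 10.9), Klf2 (4.68 ± 3.28), Dusp1 (3.28 ± 1.31), Nr4a1 (1.37 ± 0.797), Klf4 (1.30 ± 1.29) and Egr1 (0.909 ± 1.17) down to Egr2 (0.224 ± 0.194) and Egr3 (0.116 ± 0.175). In Gata2 KO the order was the same except that Klf2 (15.3 ± 13.0 CPM per kb) stood above Klf6 (12.6 ± 7.71). Neighbours in both orders overlapped within 1 SD, apart from Egr2 and Egr3 in KO (0.418 ± 0.145 and 0.0759 ± 0.0289 CPM per kb). These lengths count every annotated exon of a gene, which need not match the transcripts present.

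Genes whose profile over the 6 libraries was nearest to that of Klf2 were found by the root mean square difference of centred log2 CPM, among 9919 other genes with a mean of at least 5 CPM. The nearest was Hlx, a homeobox factor of blood cells, at a difference of 0.10, with 10.5, 7.76 and 30.0 CPM in f/f 1, 2 and 3 and 35.7, 12.4 and 95.0 CPM in KO 1, 2 and 3. The next were the short-chain fatty acid receptor Ffar2 (0.14), the Ras activator Rasgrp4 (0.26), the nucleic acid sensor Zbp1 (0.29) and the monoglyceride lipase Mgll (0.31). Within the set, Klf4 was the nearest to Klf2 (0.59) and Ier3 the next (0.61), and 182 of the 9919 genes were nearer than Klf4. Ier2 was the farthest of the 8 (0.98). All profiles share the same 6 libraries and their depth.

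Related genes were read from the same fits. Of 14 other KLF genes, 11 were tested and 7 had a positive log2 fold change (median 0.18). Klf7 was at 7.22 ± 1.26 CPM in f/f and 10.5 ± 4.50 CPM in KO, and Klf9, a glucocorticoid-responsive factor, at 20.6 ± 1.10 and 24.4 ± 4.17 CPM (SD, n = 3). Of Egr4, Nr4a2, Nr4a3 and the EGR corepressors Nab1 and Nab2, 4 were tested and 2 were positive, and Nab1 was at 74.5 ± 10.8 and 72.1 ± 13.0 CPM. Neither list had a gene called by edgeR or by DESeq2 with the block, against 0.00% and 1.62% of all tested genes. Between numbers only Klf5 of the 11 tested KLF genes was called, and 9.09% of all tested genes were. Klf5 had number 3 below number 1 (log2 -2.65, edgeR F test, adjusted p = 0.0327), and it is named after its values were seen.

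The 9 AP-1 genes, partners in the same response, all had positive values (median 0.58). Within every number 8 of them were higher in KO, against 20.7% of all tested genes. Batf, an AP-1 factor of lymphoid and myeloid cells, was at 40.2 ± 6.68 and 60.1 ± 20.2 CPM, and Fosl1 at 7.31 ± 4.75 and 15.4 ± 10.4 CPM. Of 42 other early response genes, 39 were positive (median 0.27) and 18 were higher in KO within every number, against 20.7% of all tested genes. Nfil3, a basic leucine zipper factor, was at 33.6 ± 8.49 and 59.4 ± 27.9 CPM. Gadd45b, a stress-induced growth arrest gene, was at 30.5, 28.9 and 16.1 CPM in f/f 1, 2 and 3, against 36.7, 42.8 and 36.4 CPM in KO 1, 2 and 3, so that every KO library lay above every f/f library, as in 2.64% of all tested genes. Socs3, the feedback inhibitor of cytokine receptors, was at 8.27, 5.22 and 76.2 CPM in f/f 1, 2 and 3, against 36.0, 15.7 and 117 CPM in KO 1, 2 and 3. DESeq2 with the block called it higher in KO (log2 1.41 ± 0.30, adjusted p = 0.000744), and no other gene of these lists. That fit called 1.31% of all tested genes higher in KO. By the F test of the number, 6 of the 9 AP-1 genes and 8 of the 42 other early response genes were called. All of these had number 3 above number 1. Of all tested genes 9.09% were called, and 6.61% were called with number 3 above number 1.

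Of 16 tested ERK feedback genes, 6 had a positive log2 fold change (median -0.07). None was called between genotypes by edgeR or by DESeq2 with the block, against 0.00% and 1.62% of all tested genes. Spred1, an inhibitor of Ras-ERK signalling, was at 48.0, 48.7 and 60.7 CPM in f/f, against 38.2, 41.0 and 39.4 CPM in KO, with every KO library below every f/f library, as in 2.78% of all tested genes (log2 fold change -0.41 ± 0.21; edgeR, adjusted p = 1.00). Dusp7, an ERK phosphatase, was at 32.5 ± 8.88 and 42.9 ± 17.8 CPM. Dusp6, an ERK phosphatase and a usual readout of ERK output, is named after its values were seen. It was at 21.5, 14.9 and 106 CPM in f/f 1, 2 and 3, against 27.7, 15.9 and 90.3 CPM in KO 1, 2 and 3, high in number 3 and nearly level between genotypes (log2 fold change -0.09 ± 0.89; F test of the number, adjusted p = 0.00698).

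Of 16 upstream genes of the SRF, TCF, MEF2, CREB and MAP kinase lines, 10 had positive values (median 0.02). Mef2c, a MEF2 factor of myeloid progenitors, was at 234, 215 and 212 CPM in f/f 1, 2 and 3, against 175, 145 and 151 CPM in KO 1, 2 and 3 (log2 fold change -0.49 ± 0.20; edgeR, unadjusted p = 0.0433, adjusted p = 1.00). Every KO library lay below every f/f library, as in 2.78% of all tested genes. Mrtfa, a cofactor of SRF, was at 75.0 ± 15.2 and 99.0 ± 28.0 CPM. Of 5 genes known as KLF2 targets in lymphocytes and endothelium, 4 were tested and 2 were positive. Thbd, encoding thrombomodulin, was at 19.8 ± 1.74 and 15.8 ± 3.27 CPM (log2 fold change -0.33 ± 0.25, edgeR). S1pr1, at low levels, is named after its values were seen. It was at 0.798, 0.803 and 3.15 CPM in f/f 1, 2 and 3, against 1.77, 1.52 and 5.42 CPM in KO 1, 2 and 3. Its log2 fold change was 0.87 ± 0.75 (edgeR), and edgeR called neither gene between genotypes.

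**Figure D5:**
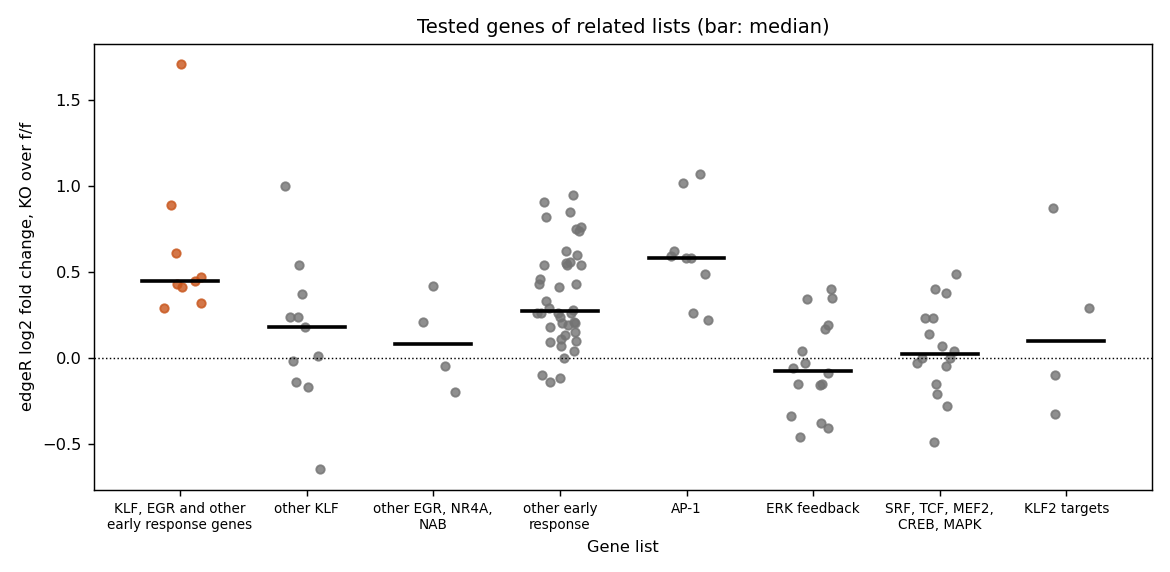
edgeR log2 fold change of KO over f/f (vertical axis) of each tested gene (points) in the early response set and 7 related lists (horizontal axis), with the median as a bar. The early response set and the AP-1 list lie wholly above 0 with medians of 0.45 and 0.58, and the ERK feedback list has a median of -0.07. No point passed edgeR's test.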

How the data were processed

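The authors deposited whole-number counts per gene, 1 column per sample, with no normalization. Per the submitters' processing notes, kallisto, HTSeq, DESeq2 and the build mm10 were used. Their roles, the aligner, the annotation and the strand setting were not given in the sources used here. Libraries were poly(A)-selected and sequenced as paired 90-base reads, per the labels' protocols. Of 49585 identifiers, 49326 matched GENCODE M21 (GRCm38) without the version, and the symbols Cyr61, Mkl1 and Mkl2 were matched through RefSeq synonyms. Promoter sequences are from RefSeq (GRCm38.p6).

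Genotype and number come from the sample titles. The design text calls the samples independent without saying whether they are separate leukaemias, so that a p-value covers only the spread among these samples, possibly technical. Genes were kept by filterByExpr (minimum count 10), which left 13744 with 99.9% of the counts, scaled by TMM and tested with edgeR's quasi-likelihood test (Benjamini-Hochberg over all genes, threshold 0.05). DESeq2 was an alternative, and the number was tested with genotype in the model. Library totals of 17138687 to 26440960 leave Egr2 and Egr3 at 45 counts or fewer, and reads carry no molecular identifiers. No libraries were duplicates (chi-square per degree of freedom at least 35.5). Between f/f and KO libraries of the same number, deviations from the group means correlated across genes at 0.294, 0.555 and 0.653. All exceeded 0.1, the rule set for pairing. So did f/f 1 with KO 2 (0.455) and f/f 2 with KO 1 (0.104), although their numbers differ. The rule therefore does not show that numbers 1 and 2 pair the samples. The fits with the block assume that they do. Fits were tested on simulated counts, drawn without differences between numbers and with the spread of the blocked model. Such counts do not show how the fits behave when numbers differ, as they do here. Software was R 4.3.3, edgeR 4.0.16 and DESeq2 1.42.0.

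The genes, lists and markers were chosen with earlier results of these data known. Genes named beyond the 10 are Gata2, the 2 of smallest edgeR p in each related list with a mean of at least 5 CPM, and the 5 nearest to Klf2; a gene that the rule names is not reported here. Socs3, Dusp6, Klf5, S1pr1 and the single marker genes were named after their values were seen. Other settings were scaling by DESeq2 size factors or upper quartile, no filter, a mean CPM of at least 1, DESeq2, the block, and leaving out libraries.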

Additional observations from a re-analysis of the deposited data

How the results depend on the processing

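Of 135 log2 fold changes of the 9 tested genes under other settings, 125 kept direction and side of the threshold, 8 turned and 2 passed it. Both that passed were of Klf2, in DESeq2 with the replicate block (1.52) and in edgeR with the replicate block once Gata2 KO 2 was left out (1.86). Leaving out 1 library at a time, values ran from -0.10 to 1.67 for Klf4, -0.35 to 1.60 for Klf6, -0.70 to 2.25 for Egr1 and -0.05 to 0.75 for Dusp1. The values that turned were -0.10 for Klf4, -0.35, -0.15 and -0.07 for Klf6, -0.70, -0.12 and -0.17 for Egr1 and -0.05 for Dusp1, each in a fit without f/f 1, f/f 2 or KO 3, and the cause was not tested. These fits leave the numbers unequal between genotypes.

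Genes called between genotypes were 0 in edgeR, 7 in DESeq2, 222 in DESeq2 with the replicate block (1 of the set) and 54 in edgeR with the replicate block and no KO 2 (1 of the set). edgeR with the replicate block called 0, and it changed no other call. Between numbers 1249 genes were called, 2348 with no filter, 2870 by DESeq2 (7 of the set) and 757 to 3460 leaving out 1 library. Of the set, 3 to 5 were called in the latter, the lowest without KO 3; the cause was not tested. Counts within numbers without number 2 or 3 were chosen after seeing the data. At 0 to 45 counts, Egr2 and Egr3 allow no statement on small differences.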
